A study of Mus musculus with 15 samples.

Results

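Members of the oxidative stress response, 10 of the 21839 genes counted, were followed in mouse lymphatic endothelial cells. They were taken by symbol from a fixed list: the regulator gene Nfe2l2, 8 genes usually counted among NRF2 targets (Hmox1, Nqo1, Gclc, Gclm, Slc7a11, Txnrd1, Srxn1 and Akr1b8) and the oxidant-producing enzyme gene Duox2. Akr1b8 and Duox2 were chosen by their measured levels in these libraries, which differed between lymph nodes that drain a tumor and nodes that do not. Their values in that comparison are therefore description, with no test. The other 8 members were chosen for their known function, though the list was made with earlier results of these data known.

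The cells came from C57BL/6 mice of 10 weeks, all of which carried a transplanted melanoma line that promotes growth of lymphatic vessels. Lymphatic cells were taken from the tumor itself (Tumor), from the node that drains it (TdLN) and from a node elsewhere that does not (NdLN). Each source had 5 RNA-sequencing libraries, and no group came from mice without a tumor. The cells were sorted as CD45-negative, CD31-positive and gp38-positive, and their RNA was amplified from 1 ng before sequencing. The melanoma line is not named in the labels, and whether the libraries of a group came from separate animals or pools is not given. All p-values therefore measure the spread between these libraries.

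NRF2, the protein encoded by Nfe2l2, is a transcription factor that is kept low by KEAP1, an adaptor that hands it to a ubiquitin ligase. Oxidants and electrophiles disable KEAP1, NRF2 accumulates, pairs with small MAF proteins and binds the antioxidant response element near genes for glutathione synthesis, thioredoxin recycling and detoxification. NRF2 is thus regulated mainly as a protein, and its RNA level does not report its activity. In endothelium the same genes respond to flow, haem and inflammatory oxidants.

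The antioxidant response element was looked for on both strands of the promoter windows in the RefSeq promoter table for GRCm38.p6, which run from 250 bases before to 50 bases after a transcription start. The table held 10 windows for 8 members, 3 of them for Txnrd1. The core form searched was TGACNNNGC, and a wider form, TGANNNNGC, contains the core. The core was present in 4 of the 10 windows (1 each of Nfe2l2, Gclm, Txnrd1 and Srxn1), and in 12.4% of all 32851 windows of the table. The wider form was present in windows of 6 members, adding Slc7a11 and Akr1b8, and in 41.3% of all windows. Neither form was found in the windows of Nqo1 and Duox2, which says only that these letters are not in these 300 bases.

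Windows of 5 members are printed 5′ to 3′ along the strand of the gene, because the results turn on these genes. Srxn1, Txnrd1 and Akr1b8 were higher in the Tumor libraries, Duox2 was lower there, and Gclm varied widely between libraries. Capitals mark the core where there is one and otherwise the wider form. In Srxn1, Txnrd1, Gclm and Akr1b8 the marked letters read as the motif on the opposite strand. A match is a description of the letters and not a binding site that was measured.
Srxn1, chr2:152105274-152105573, plus strand: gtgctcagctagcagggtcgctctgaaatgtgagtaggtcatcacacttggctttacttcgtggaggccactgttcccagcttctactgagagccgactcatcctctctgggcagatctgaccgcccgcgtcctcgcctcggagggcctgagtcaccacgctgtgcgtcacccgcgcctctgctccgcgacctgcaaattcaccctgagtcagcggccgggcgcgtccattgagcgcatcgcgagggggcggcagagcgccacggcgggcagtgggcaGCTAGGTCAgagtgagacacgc
Txnrd1 (window 2 of 3), chr10:82858956-82859255, plus strand: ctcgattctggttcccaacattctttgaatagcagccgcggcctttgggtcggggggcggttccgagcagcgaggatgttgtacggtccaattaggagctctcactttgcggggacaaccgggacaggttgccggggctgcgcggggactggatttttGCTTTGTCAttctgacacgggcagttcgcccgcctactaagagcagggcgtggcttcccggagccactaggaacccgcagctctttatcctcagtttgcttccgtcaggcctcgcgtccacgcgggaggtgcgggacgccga
Gclm, chr3:122245307-122245606, plus strand: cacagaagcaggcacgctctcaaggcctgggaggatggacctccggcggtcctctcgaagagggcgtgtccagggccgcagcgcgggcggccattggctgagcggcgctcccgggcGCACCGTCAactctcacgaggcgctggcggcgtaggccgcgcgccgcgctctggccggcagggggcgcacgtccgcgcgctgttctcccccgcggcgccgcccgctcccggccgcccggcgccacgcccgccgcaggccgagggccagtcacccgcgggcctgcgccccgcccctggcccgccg
Akr1b8, chr6:34353896-34354195, plus strand: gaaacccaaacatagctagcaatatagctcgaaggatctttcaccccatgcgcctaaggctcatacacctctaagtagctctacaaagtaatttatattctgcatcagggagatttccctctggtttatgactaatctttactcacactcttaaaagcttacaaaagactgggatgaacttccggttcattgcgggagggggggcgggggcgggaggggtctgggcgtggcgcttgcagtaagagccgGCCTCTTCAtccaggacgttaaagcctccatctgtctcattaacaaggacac
Duox2, chr2:122298178-122298477, minus strand: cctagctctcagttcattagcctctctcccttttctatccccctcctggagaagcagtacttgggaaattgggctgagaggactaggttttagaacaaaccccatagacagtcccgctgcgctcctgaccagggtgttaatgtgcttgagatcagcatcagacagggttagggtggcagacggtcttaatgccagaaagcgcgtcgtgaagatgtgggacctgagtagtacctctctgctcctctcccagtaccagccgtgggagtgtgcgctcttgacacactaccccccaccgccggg

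The marked core began at 29 bases after the start of Srxn1, at -92 in the second Txnrd1 window and at -134 in Gclm. The marked wider form began at -2 in Akr1b8. Srxn1 held 4 matches to the wider form in all, the largest number among the members, and 1 of them, TGAGTCAGC at -45, reads along the strand of the gene. The Gclm window was 79.7% G and C, against 49.0% in Akr1b8.

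Every library was deep enough for all 10 members. Total counts ranged from 23830337 to 34577494 in Tumor, from 32134127 to 37043976 in TdLN and from 31894931 to 37437282 in NdLN libraries, and the lowest count of any member in any library was 31 (Duox2 in Tumor). All 10 passed the filter on low counts. Levels are CPM (edgeR's cpm), the gene's part of the library's counts with TMM factors applied. Differences were tested with edgeR's quasi-likelihood test, with p adjusted by Benjamini-Hochberg over 13887 genes, and genes under 0.05 are termed called. Beside each log2 fold change stands its standard error (SE).

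The lymphatic label was checked against marker genes. The 8 lymphatic markers, among them Prox1 and Lyve1, took 0.335 to 0.473% of counts in Tumor, 0.588 to 0.815% in TdLN and 0.689 to 0.873% in NdLN libraries. Prox1, which specifies lymphatic identity, averaged 105 ± 22.7 CPM in Tumor, 539 ± 74.9 CPM in TdLN and 766 ± 52.9 CPM in NdLN (SD, n = 5 each). The markers did not move one way: 2 of 8 (Ccl21a, Reln) were called higher in Tumor than in either node group, and 4 (Prox1, Mmrn1, Stab2, Lyve1) were lower than in TdLN and 3, without Lyve1, lower than in NdLN. Flt4 and Pdpn, which encodes the gp38 used in the sort, passed in neither. The Tumor libraries also held RNA of pigment cells: 8 pigment markers such as Pmel took 2.67 to 4.15% of their counts, against 0.000932 to 0.00286% in TdLN and 0.00147 to 0.00331% in NdLN libraries. Fibroblast markers (8 genes) took 0.137 to 1.07% in Tumor, 0.0111 to 0.0356% in TdLN and 0.0227 to 0.0523% in NdLN. Macrophage markers (11 genes) took 0.011 to 0.0251% in Tumor, 0.00211 to 0.0054% in TdLN and 0.00132 to 0.0041% in NdLN. Markers of blood endothelium (8 genes) took 0.0994 to 0.245% in Tumor, 0.368 to 0.807% in TdLN and 0.415 to 0.903% in NdLN. No marker of these lists was at 0 in a whole group. These shares move with every Tumor difference given here, and their part in those differences was not tested. In bulk RNA, fewer cells of a type and less RNA per cell cannot be told apart.

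The Tumor libraries had more RNA of Akr1b8, Hmox1, Txnrd1 and Srxn1 than the TdLN libraries. They had less of Nfe2l2, Nqo1 and Duox2. So 7 of the 10 members were called in Tumor against TdLN, 4 higher and 3 lower. In this comparison 62.0% of all genes tested were called (31.9% higher, 30.1% lower), so the members' share is close to the background. The median log2 fold change of the 10 members was 0.41, against 0.04 for all genes tested. Against NdLN, Akr1b8, Hmox1, Txnrd1 and Srxn1 were called higher and Nfe2l2, Nqo1 and Duox2 lower, again 7 of 10, where 66.5% of all genes were called (34.0% higher, 32.5% lower). Their median was 0.53, against 0.04. These comparisons share the 5 Tumor libraries, so the second is not an independent repeat of the first. The member counts and medians of both include Akr1b8 and Duox2, which were listed for their values in these same node libraries. Their part in the counts is therefore not a result about the members.

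**Figure D1:**
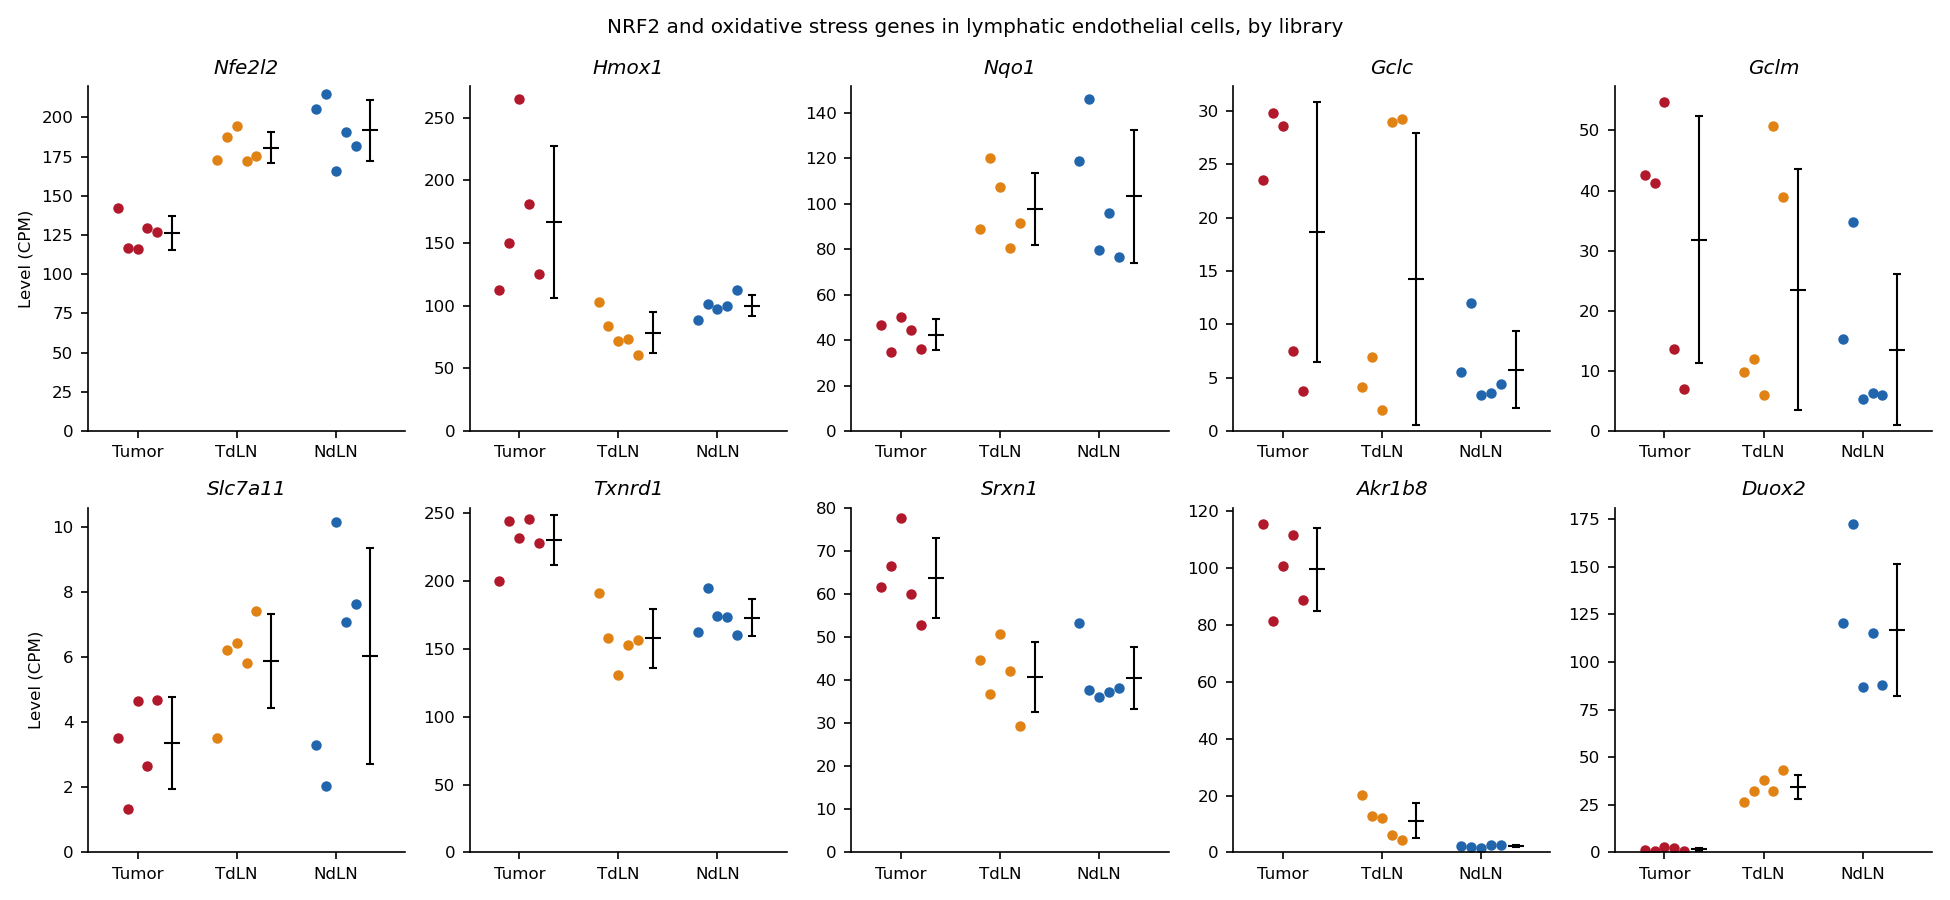
Level of each member in CPM (vertical axis, linear and starting at 0) in the 5 Tumor, 5 TdLN and 5 NdLN libraries; points are libraries, the horizontal tick is the mean and the bar 1 SD. Akr1b8 lies at 81.4 CPM or more in every Tumor library, Duox2 at 2.84 CPM or less there, and Gclc and Gclm spread widely within groups.

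Nfe2l2, which encodes NRF2 itself, lies on chromosome 2 (75675513 to 75704641, minus strand, GRCm38). It had 142, 117, 116, 130 and 127 CPM in Tumor 1 to 5, against 173, 188, 194, 172 and 176 CPM in TdLN 1 to 5 and 205, 215, 166, 191 and 182 CPM in NdLN 1 to 5. Every Tumor library lay below every node library, and the node groups overlapped. Nfe2l2 fell by 0.52 ± 0.09 on the log2 scale in Tumor against TdLN (edgeR adjusted p = 0.00012) and by 0.60 ± 0.09 against NdLN (adjusted p = 2.3e-05).

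Hmox1 encodes haem oxygenase-1, which splits haem into biliverdin, carbon monoxide and iron (chromosome 8, 75093621 to 75100589, plus strand). Its level was 112, 150, 265, 181 and 125 CPM in Tumor, against 103, 84.1, 71.4, 73.0 and 60.3 CPM in TdLN and 88.7, 101, 97.2, 99.6 and 112 CPM in NdLN. Tumor libraries lay above all TdLN and NdLN libraries, by a margin of under 1 CPM between Tumor 1 and NdLN 5, and Tumor 3 was the highest. The rise was 1.09 ± 0.20 (2.13-fold, edgeR adjusted p = 0.000282) against TdLN and 0.74 ± 0.20 (1.67-fold, adjusted p = 0.00467) against NdLN.

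Nqo1, an enzyme that reduces quinones with NADH or NADPH, moved the other way (chromosome 8, 107388225 to 107403206, minus strand). It had 46.4, 34.8, 50.2, 44.6 and 35.9 CPM in Tumor, against 89.0, 120, 107, 80.7 and 91.5 CPM in TdLN and 119, 146, 79.6, 95.8 and 76.6 CPM in NdLN. No Tumor library reached the lowest node library. Nqo1 was 2.31-fold lower in Tumor than in TdLN (log2 fold change -1.21 ± 0.18, edgeR adjusted p = 3.66e-05) and 2.44-fold lower than in NdLN (-1.29 ± 0.18, adjusted p = 1.61e-05).

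Gclc and Gclm encode the catalytic and the modifier subunit of glutamate-cysteine ligase, the first step of glutathione synthesis, and neither was called in any comparison. Gclc (chromosome 9, 77754535 to 77794485, plus strand) had 23.6, 29.8, 28.6, 7.50 and 3.74 CPM in Tumor, against 4.13, 6.91, 1.96, 29.0 and 29.3 CPM in TdLN and 5.48, 12.0, 3.36, 3.52 and 4.37 CPM in NdLN. Gclm (chromosome 3, 122245557 to 122270732, plus strand) had 42.6, 41.3, 54.7, 13.6 and 6.95 CPM in Tumor, against 9.87, 11.9, 5.90, 50.7 and 38.9 CPM in TdLN and 15.4, 34.7, 5.23, 6.25 and 6.01 CPM in NdLN. Both were high in Tumor 1, 2 and 3 and in TdLN 4 and 5, low in the remaining libraries of those groups, and highest in NdLN 2 within NdLN, so the groups overlapped.

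Against TdLN, the Tumor log2 fold change was 0.39 ± 0.71 for Gclc (edgeR adjusted p = 0.656) and 0.44 ± 0.70 for Gclm (adjusted p = 0.604), with 95% intervals of -1.13 to 1.90 and -1.05 to 1.94. Against NdLN it was 1.70 ± 0.73 for Gclc (adjusted p = 0.0525) and 1.24 ± 0.71 for Gclm (adjusted p = 0.137). The Gclc value against NdLN sits at the threshold: it passed without Tumor 4 (adjusted p = 0.0396), without Tumor 5 (0.0253) or without NdLN 2 (0.0268). It also passed with DESeq2 (adjusted p = 0.0162), with RLE (0.0485) or upper quartile factors (0.049) and in an edgeR fit of only these 2 groups (0.0198), and its adjusted p ranged from 0.000554 to 0.213 over all alternatives that kept every library. Gclm passed there without NdLN 2 (log2 fold change 1.95, adjusted p = 0.0266).

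Gclc and Gclm were the most variable members within groups, with a within-group SD of 1.33 and 1.26 on the log2 scale, higher than for 95.3% and 93.9% of the genes tested. Nfe2l2 had 0.12 and Txnrd1 0.15. The deviation of Gclc and of Gclm from the group mean had the same sign in 15 of 15 libraries. Their transcripts hold stretches rich in G and C: the richest window of 100 bases reached 84% in Gclc and 82% in Gclm. Among the genes tested with a coding transcript, 2831 of 13757 (20.6%) held a window of at least 80%, and these genes took 10.1 to 18.9% of the counts of a library. The median deviation of these GC-rich genes had the sign of the Gclc deviation in 13 of 15 libraries and that of Gclm in 13 of 15. Srxn1 also reached 82%, with a within-group SD of 0.25. Of the 50-base windows of the Gclm transcripts, 4.58% also occur in other genes, among them Ppia and the overlapping Gm17494 and Gm6061. So a small part of the Gclm reads is uncertain.

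With the log2 share of counts in GC-rich genes as a covariate, an alternative chosen after seeing the data, the SE of Gclc in Tumor against NdLN was 0.33 and its log2 fold change 1.09 (edgeR adjusted p = 0.00886). Gclm was then at 0.94 ± 0.35 (adjusted p = 0.026). With the share centred within groups the values were 1.58 ± 0.33 (adjusted p = 0.000554) for Gclc and 1.38 ± 0.35 (adjusted p = 0.0026) for Gclm. Against TdLN neither gene passed with either covariate (adjusted p from 0.052 to 0.374). Whether the GC-rich stretches set these levels was not tested.

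**Figure D2:**
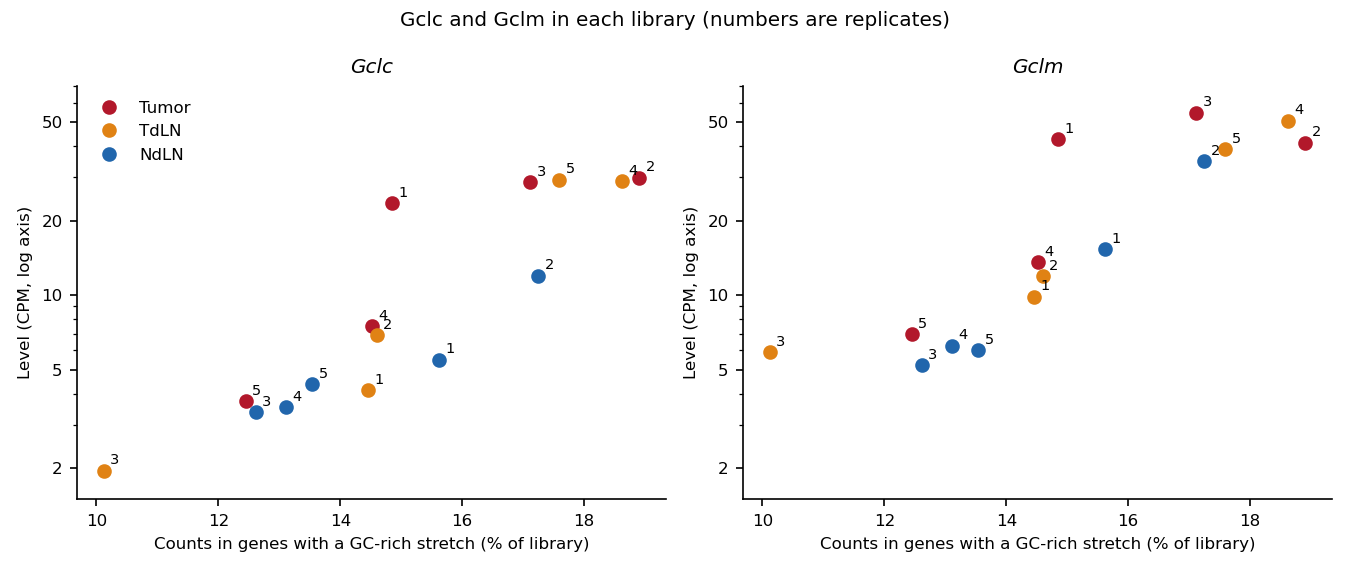
Level of Gclc (left) and Gclm (right) in CPM (log axis) against the percentage of a library's counts in genes with a GC-rich stretch (linear axis); each point is 1 library, coloured by group, with its replicate number. The share runs from 10.1% in TdLN 3 to 18.9% in Tumor 2. Both genes were highest in TdLN 4 and 5 within TdLN and in NdLN 2 within NdLN, the libraries with the largest shares there. Tumor 1 and Tumor 4 had shares of 14.9% and 14.5%, with Gclc at 23.6 and 7.50 CPM and Gclm at 42.6 and 13.6 CPM.

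Slc7a11, the subunit of the exchanger that imports cystine for glutathione, was low throughout (chromosome 3, 49892526 to 50443614, minus strand). It had 3.52, 1.34, 4.64, 2.64 and 4.67 CPM in Tumor, against 3.52, 6.21, 6.42, 5.83 and 7.40 CPM in TdLN and 3.28, 2.03, 10.2, 7.07 and 7.62 CPM in NdLN. The groups overlapped, and neither difference passed: the log2 fold change was -0.81 ± 0.42 against TdLN (edgeR adjusted p = 0.107) and -0.84 ± 0.42 against NdLN (adjusted p = 0.0874). Without NdLN 2 the difference from NdLN passed (-1.07, adjusted p = 0.0226).

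Txnrd1 encodes the thioredoxin reductase of the cytosol, which keeps thioredoxin reduced (chromosome 10, 82833951 to 82897712, plus strand). Its level was 200, 244, 231, 246 and 228 CPM in Tumor, against 191, 158, 131, 153 and 157 CPM in TdLN and 163, 195, 174, 173 and 160 CPM in NdLN. Every Tumor library lay above every node library, with Tumor 1 close to NdLN 2. The rise was 0.54 ± 0.10 against TdLN (1.46-fold, edgeR adjusted p = 0.000262) and 0.41 ± 0.10 against NdLN (1.33-fold, adjusted p = 0.00218).

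Srxn1 encodes sulfiredoxin, which restores over-oxidised peroxiredoxins (chromosome 2, 152105516 to 152111376, plus strand). It had 61.7, 66.7, 77.8, 60.1 and 52.9 CPM in Tumor, against 44.7, 36.8, 50.7, 42.2 and 29.3 CPM in TdLN and 53.3, 37.7, 36.2, 37.3 and 38.2 CPM in NdLN. Tumor and TdLN did not overlap, while NdLN 1 lay above Tumor 5. Srxn1 rose by 0.65 ± 0.16 against TdLN (1.57-fold, edgeR adjusted p = 0.00216) and by 0.65 ± 0.16 against NdLN (1.57-fold, adjusted p = 0.00178).

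Akr1b8, a reductase of the aldo-keto family that acts on aldehydes, had the largest rise of the members (chromosome 6, 34354119 to 34368463, plus strand). It had 116, 81.4, 101, 112 and 88.7 CPM in Tumor, against 20.3, 12.9, 12.0, 6.28 and 4.49 CPM in TdLN and 2.30, 1.8, 1.67, 2.64 and 2.62 CPM in NdLN. No library of 1 group overlapped another group. Tumor exceeded TdLN 8.89-fold (log2 fold change 3.15 ± 0.33, edgeR adjusted p = 9.71e-07) and NdLN 45.2-fold (5.50 ± 0.37, adjusted p = 7.12e-09). The node libraries in these tests are those whose Akr1b8 values put the gene on the list. Of its 50-base windows, 2.9% occur in Akr1b10, Akr1b7 or related pseudogenes, so a small part of its reads is uncertain.

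Duox2 encodes a dual oxidase, a membrane enzyme that makes hydrogen peroxide, and had the largest fall (chromosome 2, 122279247 to 122298449, minus strand). It had 1.27, 0.918, 2.84, 2.39 and 0.985 CPM in Tumor, against 26.5, 32.1, 37.8, 32.5 and 43.5 CPM in TdLN and 121, 173, 87.1, 116 and 88.0 CPM in NdLN. The ranges of the 3 groups were apart. Tumor was 20.4-fold below TdLN (log2 fold change -4.35 ± 0.33, edgeR adjusted p = 2.86e-08) and 69.2-fold below NdLN (-6.11 ± 0.36, adjusted p = 1.35e-09). Here too the node libraries are those that put Duox2 on the list. Duox1 shares 6.05% of the 50-base windows of Duox2 and averaged 0.517 CPM in Tumor, 0.303 CPM in TdLN and 0.382 CPM in NdLN.

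The Tumor libraries did not overlap TdLN for the 7 members called, 4 higher and 3 lower, where 46.6% of all genes tested did not overlap (24.1% higher, 22.5% lower). Against NdLN they did not overlap for 6 members, 3 higher and 3 lower, with Srxn1 the called exception, where the share of all genes was 54.6% (27.7% higher, 27.0% lower). When each library was left out in turn, each of these 7 calls held in both comparisons. Tested against a log2 fold change of 1 in place of 0, Akr1b8 and Duox2 passed in both comparisons and the other 8 members in neither. Both were listed for a difference seen in the node libraries that this test reuses. That they alone passed is therefore no result about the members. Both are also among the members without overlap given above.

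**Figure D3:**
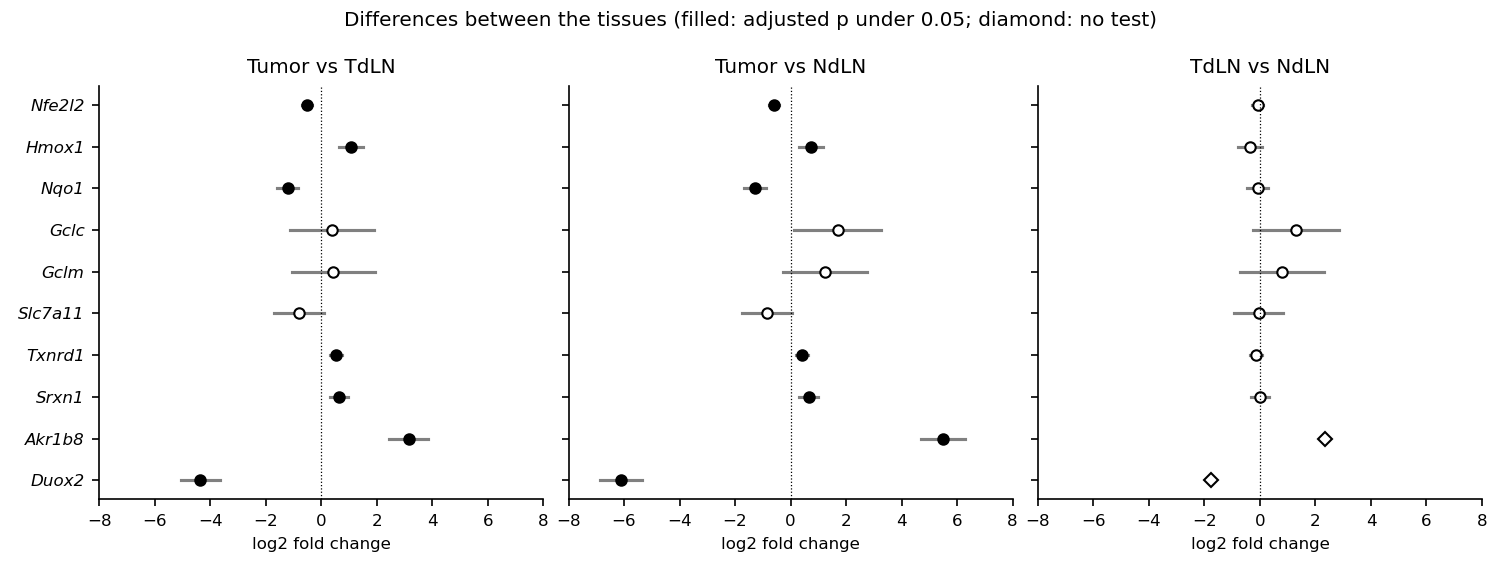
Log2 fold change (horizontal axis) of each member in Tumor against TdLN, Tumor against NdLN and TdLN against NdLN, with 95% intervals; filled points passed at adjusted p under 0.05 and diamonds were not tested. Akr1b8 lies at 3.15 and 5.50 and Duox2 at -4.35 and -6.11 in the Tumor comparisons, and no tested member passed between the nodes.

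Between the nodes, none of the 8 members chosen for function was called: 0 of 8 passed edgeR's test, 0 of 8 had an unadjusted p under 0.05, and DESeq2 called 0. In this comparison 3.49% of all genes tested were called, 1.84% higher and 1.64% lower. That count depends on single libraries: 484 genes were called with all of them and 225 to 319 without any 1 of TdLN 1, 2 or 3 or NdLN 2, 3, 4 or 5. The log2 fold change of TdLN against NdLN was -0.09 for Nfe2l2 (95% interval -0.27 to 0.10), -0.35 for Hmox1 (-0.78 to 0.08), -0.08 for Nqo1 (-0.46 to 0.30), -0.13 for Txnrd1 (-0.35 to 0.08) and 0.01 for Srxn1 (-0.33 to 0.34). The intervals were wider for Gclc (-0.24 to 2.86), Gclm (-0.71 to 2.30) and Slc7a11 (-0.92 to 0.84). So a doubling of Nfe2l2, Hmox1, Nqo1, Slc7a11, Txnrd1 or Srxn1 lies outside the interval, and a doubling of Gclc or Gclm lies within it.

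By description, Akr1b8 was 5.08-fold higher and Duox2 3.39-fold lower in TdLN than in NdLN. TdLN 1 was the highest of the TdLN libraries for Akr1b8, and TdLN 5 the lowest. The values of Duox2 in TdLN were closer together, within 26.5 to 43.5 CPM. For both genes the libraries of the nodes did not overlap. Of all genes tested, 7.83% did not overlap (2.87% higher, 4.95% lower). These same values put both genes on the list, so that share cannot tell how unusual they are.

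Levels of different genes can be set side by side only per length, and are given here as mean CPM per kb of exon ± SD over 5 libraries. In Tumor the order began with Hmox1 (95.2 ± 34.8), Akr1b8 (66.5 ± 9.75), Nfe2l2 (33.3 ± 2.83), Txnrd1 (32.5 ± 2.60) and Nqo1 (27.3 ± 4.34). Srxn1 (22.6 ± 3.27), Gclm (5.06 ± 3.26), Gclc (4.95 ± 3.24), Duox2 (0.248 ± 0.129) and Slc7a11 (0.241 ± 0.101) followed. The ranges of mean ± 1 SD overlapped between Hmox1 and Akr1b8, between each pair of neighbours from Nfe2l2 to Srxn1, between Gclm and Gclc, and between Duox2 and Slc7a11.

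In TdLN the order per length was Nqo1 (63.0 ± 10.3), Nfe2l2 (47.6 ± 2.62), Hmox1 (44.8 ± 9.25), Txnrd1 (22.3 ± 3.06), Srxn1 (14.4 ± 2.88), Akr1b8 (7.47 ± 4.16), Duox2 (5.09 ± 0.951), Gclc (3.79 ± 3.64), Gclm (3.73 ± 3.19) and Slc7a11 (0.422 ± 0.103). Those ranges overlapped between Nfe2l2 and Hmox1 and between each pair of neighbours from Srxn1 to Gclm.

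In NdLN it was Nqo1 (66.6 ± 18.9), Hmox1 (57.0 ± 4.82), Nfe2l2 (50.5 ± 5.09), Txnrd1 (24.4 ± 1.95), Duox2 (17.3 ± 5.14), Srxn1 (14.4 ± 2.55), Gclm (2.15 ± 2.00), Gclc (1.53 ± 0.954), Akr1b8 (1.47 ± 0.303) and Slc7a11 (0.433 ± 0.239). Here the ranges overlapped between each pair of neighbours from Nqo1 to Nfe2l2, between Duox2 and Srxn1, and between each pair of neighbours from Gclm to Akr1b8. Akr1b8 thus ranked 2 of the 10 members in Tumor and 9 in NdLN, and Duox2 9 in Tumor and 5 in NdLN.

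Lists of related genes put the members in context. Of all genes tested, 31.9% were higher and 30.1% lower in Tumor against TdLN, and 34.0% and 32.5% against NdLN. In TdLN against NdLN 1.84% were higher and 1.64% lower. Of 11 genes that control NRF2, 2 were higher and 5 lower in Tumor than in TdLN, and 1 was higher and 6 lower than in NdLN. Keap1 averaged 79.4 ± 8.91 CPM in Tumor, against 159 ± 18.8 CPM in TdLN and 146 ± 7.35 CPM in NdLN (SD, n = 5 each). It was thus 2.01-fold lower than in TdLN (log2 fold change -1.01 ± 0.10, edgeR adjusted p = 5.56e-07) and lower by -0.88 ± 0.10 than in NdLN (adjusted p = 1.74e-06). Bach1, a repressor that competes for the same element, was also lower in Tumor, by -1.21 ± 0.24 against TdLN (adjusted p = 0.000397), and Nfe2l1, a related factor, by -1.59 ± 0.23 (adjusted p = 2.64e-05). Rbx1, the RING subunit of the ligase that KEAP1 serves, was higher (0.75 ± 0.12, adjusted p = 5.64e-05).

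Other NRF2 targets of detoxification and transport went both ways. Of 15 tested, 5 were higher and 5 lower in Tumor than in TdLN, with a median log2 fold change of -0.06. These counts are close to the shares of all genes tested (31.9% higher, 30.1% lower). Against NdLN 6 were higher and 7 lower, with a median of -0.19, beside 34.0% and 32.5% of all genes. Gstp1, a glutathione transferase, averaged 980 CPM in Tumor and 81.5 CPM in TdLN (log2 fold change 3.59 ± 0.16, edgeR adjusted p = 8.5e-11). Gsta4, a transferase for lipid aldehydes, averaged 278 CPM in Tumor and 0.575 CPM in TdLN (8.91 ± 0.37, adjusted p = 5.66e-11). Trim16 averaged 7.05 CPM in Tumor and 52.2 CPM in TdLN (-2.89 ± 0.28, adjusted p = 3.64e-07), and Cbr1, a carbonyl reductase, 24.0 CPM in Tumor and 53.6 CPM in TdLN (-1.16 ± 0.14, adjusted p = 4.21e-06).

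Genes that use glutathione and thioredoxin were mostly higher in Tumor. In the glutathione list 9 of 11 were higher and 0 lower than in TdLN, with a median log2 fold change of 1.14. With limma's voom 8 were higher there. The median is the value of Gsr. Its call held in 4 of 10 fits with 1 library left out (edgeR adjusted p from 0.0192 to 0.0917). Against NdLN 8 were higher and 0 lower. Gpx3, a secreted peroxidase, averaged 977 CPM in Tumor and 31.7 CPM in TdLN (4.94 ± 0.44, edgeR adjusted p = 1.67e-07). Gss, which completes glutathione, averaged 65.1 CPM in Tumor and 38.4 CPM in TdLN (0.76 ± 0.13, adjusted p = 9.6e-05). In the thioredoxin and peroxiredoxin list 8 of 11 were higher and 1 lower than in TdLN, and 9 higher and 1 lower than in NdLN. Prdx1 averaged 1424 CPM in Tumor and 637 CPM in TdLN (1.16 ± 0.13, adjusted p = 2.65e-06), while Txnip, whose protein binds and inhibits thioredoxin, averaged 215 CPM in Tumor and 1053 CPM in TdLN (-2.29 ± 0.20, adjusted p = 1.31e-07).

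NADPH, which both systems consume, is supplied by a list of 6 genes, of which 5 were higher and 0 lower in Tumor than in either node group. Me1, the cytosolic malic enzyme, averaged 65.7 CPM in Tumor and 22.1 CPM in TdLN (1.57 ± 0.15, edgeR adjusted p = 3.41e-07). Of 9 genes of haem and iron handling, 7 were higher and 2 lower in Tumor than in either node group. Tfrc, the transferrin receptor, averaged 216 CPM in Tumor and 7.39 CPM in TdLN (4.87 ± 0.36, adjusted p = 2e-08), and Ftl1, the ferritin light chain, 1679 CPM in Tumor and 570 CPM in TdLN (1.56 ± 0.14, adjusted p = 1.35e-07). Fth1, the heavy chain, averaged 2921 CPM in Tumor and 6544 CPM in TdLN (-1.16 ± 0.13, adjusted p = 1.68e-06). Ferritin, thioredoxin and peroxiredoxin genes have processed pseudogenes, so their counts are uncertain. Of 4 superoxide dismutase and catalase genes, 2 were higher (Sod2, Sod3) and 1 lower (Cat) in Tumor than in either node group.

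**Figure D4:**
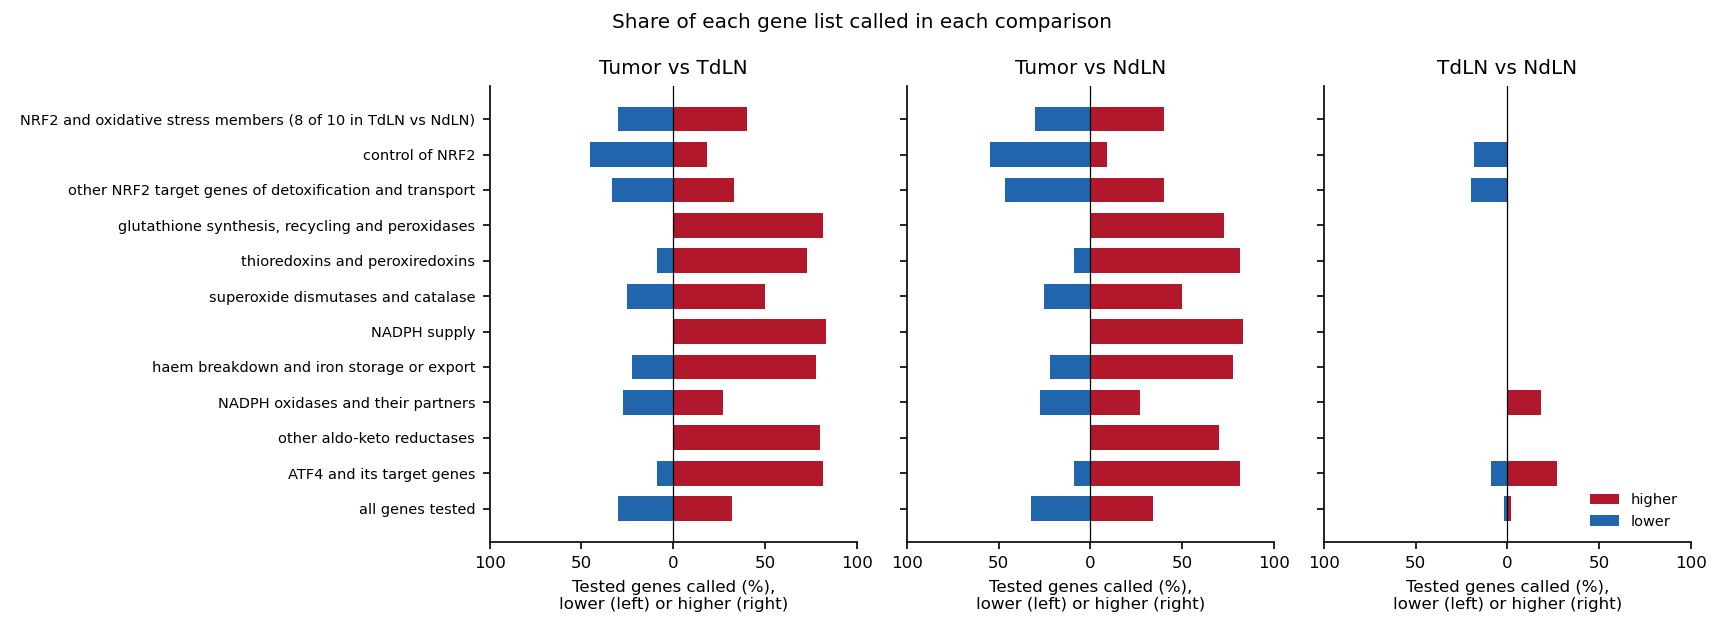
Percentage of the tested genes of each list called higher (right, red) or lower (left, blue) in Tumor against TdLN, Tumor against NdLN and TdLN against NdLN, at adjusted p under 0.05; the bottom bar is all 13887 genes tested. In Tumor against TdLN 9 of 11 genes of the glutathione list were higher and 0 lower, while the members were split into 4 and 3.

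Duox2 needs the maturation factor encoded by Duoxa2 to reach the cell surface. Duoxa2 had 0.410, 0.0525, 0.450, 0.661 and 0.261 CPM in Tumor, against 16.4, 38.6, 34.3, 36.1 and 43.1 CPM in TdLN and 81.3, 91.7, 41.8, 56.7 and 41.9 CPM in NdLN. Tumor lay below both node groups, with a log2 fold change of -6.52 ± 0.48 against TdLN (edgeR adjusted p = 2.06e-08) and -7.42 ± 0.50 against NdLN (adjusted p = 5.99e-09), and the node groups overlapped (-0.90 ± 0.36 in TdLN against NdLN, adjusted p = 0.207). Nox1, another oxidase catalytic subunit, had 2 counts in all in the Tumor libraries, against 10.4 ± 3.95 CPM in TdLN and 1.64 ± 0.897 CPM in NdLN. It was higher in TdLN than in NdLN (2.66 ± 0.58, adjusted p = 0.0202), a call that was lost without TdLN 3 (adjusted p = 0.0538) or NdLN 4 (0.0523).

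In the list of 11 tested NADPH oxidase genes, 3 were higher and 3 lower in Tumor than in either node group. These counts too are close to the shares of all genes tested. Nox4 averaged 26.2 CPM in Tumor and 8.90 CPM in TdLN (1.56 ± 0.27, edgeR adjusted p = 0.000123), and Cyba, the membrane partner of several oxidases, 237 CPM in Tumor and 833 CPM in TdLN (-1.81 ± 0.14, adjusted p = 2.97e-08).

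Of 10 other aldo-keto reductases, 8 were higher and 0 lower in Tumor than in TdLN, and 7 higher and 0 lower than in NdLN. For this list and those of glutathione and NADPH supply, the count of lower genes in Tumor was also 0 at an unadjusted p under 0.05, with DESeq2 and with limma's voom. Akr1b10, a relative that shares sequence windows with Akr1b8, had 57.5, 41.6, 29.0, 55.7 and 54.7 CPM in Tumor, against 7.10, 7.48, 7.97, 8.31 and 9.08 CPM in TdLN and 4.46, 7.53, 6.87, 8.11 and 6.83 CPM in NdLN. Tumor exceeded both node groups (2.58 ± 0.20 against TdLN, edgeR adjusted p = 4.26e-08), and the node groups overlapped (0.24 ± 0.20, adjusted p = 0.58). Akr1b7 averaged 0.567 CPM in Tumor, 0.098 CPM in TdLN and 0.147 CPM in NdLN. Its log2 fold change was 2.48 ± 1.23 in Tumor against TdLN (edgeR adjusted p = 0.0914) and 1.92 ± 1.19 against NdLN (adjusted p = 0.167). It passed against TdLN without TdLN 3 (5.68, adjusted p = 0.00254) and with limma's voom (adjusted p = 0.00479), and with voom also against NdLN (0.0433). With the GC covariates it passed in both (adjusted p from 0.000169 to 0.00919).

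ATF4, a factor of the amino acid response, also drives Slc7a11, so its targets were listed. Of 11 genes, 9 were higher and 1 lower in Tumor than in either node group. In TdLN against NdLN 3 were higher (Asns, Psat1, Mthfd2) and 1, Atf4 itself, lower. Psat1, an enzyme of serine synthesis, averaged 236 CPM in Tumor, 32.9 CPM in TdLN and 11.0 CPM in NdLN, and its rise in TdLN over NdLN (1.58 ± 0.34, edgeR adjusted p = 0.0191) was lost without NdLN 2 (adjusted p = 0.057). The rise of Asns, asparagine synthetase (1.00 ± 0.22, adjusted p = 0.0205), was lost without TdLN 1 (0.0536) or NdLN 2 (0.0522). That of Mthfd2 (1.58 ± 0.36, adjusted p = 0.0277) was lost without any 1 of TdLN 1 or 3 or NdLN 2, 3, 4 or 5 (0.0501 to 0.0724), with voom (0.0766) and in the fit of only the 2 node groups (0.0543). Slc7a11 was not called higher in any comparison.

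In the remaining lists the nodes differed in few genes, where 3.49% of all genes tested were called. Of the 11 NRF2 control genes 0 were higher and 2 lower in TdLN than in NdLN: Sqstm1, whose protein p62 can bind KEAP1 (697 CPM in TdLN and 1006 CPM in NdLN, -0.53 ± 0.09, edgeR adjusted p = 0.006), and the small MAF gene Mafk (103 CPM in TdLN and 186 CPM in NdLN, -0.85 ± 0.12, adjusted p = 0.0022). Of the 15 other targets 0 were higher and 3 lower: Ephx1, an epoxide hydrolase (-0.91 ± 0.20, adjusted p = 0.0205), Pir (-1.0 ± 0.24, adjusted p = 0.0312) and Gstm1, a glutathione transferase (-0.53 ± 0.14, adjusted p = 0.046). The call of Gstm1 was lost whichever node library was left out (adjusted p from 0.0508 to 0.126), and also with upper quartile factors (0.0574) and with no filter on low counts (0.0589). That of Pir was lost without any 1 of TdLN 1, 2 or 3 or NdLN 1, 2 or 4 (0.0535 to 0.093) and with voom (0.0528). That of Ephx1 was lost without TdLN 3 (0.0513) or NdLN 2 (0.0596). In the glutathione, thioredoxin, dismutase, NADPH supply, iron and aldo-keto lists edgeR called 0 genes between the nodes. At an unadjusted p under 0.05 there were 4 in the glutathione list, 2 in the thioredoxin list and 1 each in the dismutase and aldo-keto lists. DESeq2 called 1 each in the glutathione, thioredoxin and dismutase lists, and voom 1 each in the glutathione and thioredoxin lists.

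**Figure D5:**
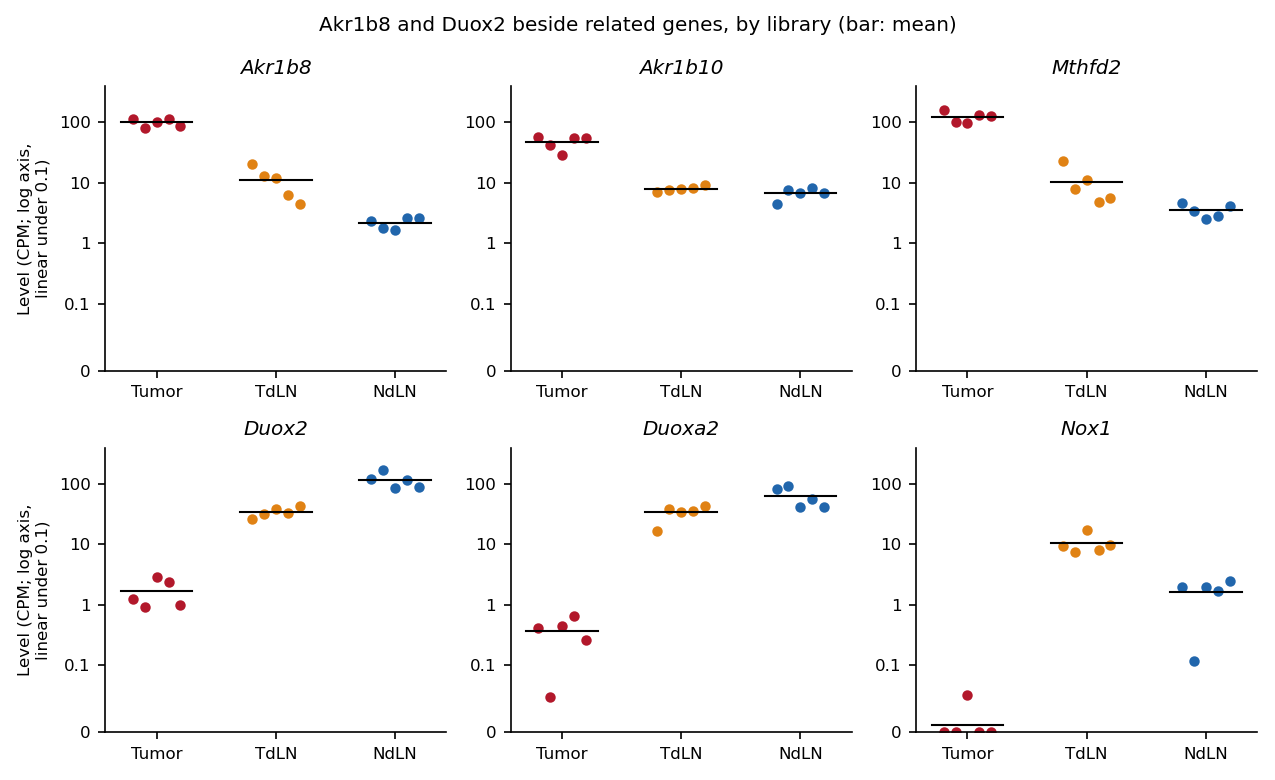
Level in CPM (log axis, linear under 0.1) of Akr1b8, Akr1b10 and Mthfd2 (top) and of Duox2, Duoxa2 and Nox1 (bottom) in each Tumor, TdLN and NdLN library; bars are means. Akr1b8 and Mthfd2 step down over Tumor, TdLN and NdLN, Akr1b10 overlaps between the nodes, and Nox1 is at 0 in 4 of 5 Tumor libraries and higher in TdLN than in NdLN.

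Likeness of profiles was measured as the root mean square difference of log2 CPM, each gene centred on its own mean over the 15 libraries. The search covered the genes tested, without members and predicted or clone-named genes. The nearest to Akr1b8 were Mthfd2, a mitochondrial folate enzyme (difference 0.45), and Rrm2, a ribonucleotide reductase subunit (0.49). Mthfd2 averaged 125 CPM in Tumor, 10.4 CPM in TdLN and 3.49 CPM in NdLN. The nearest to Duox2 were Egf (0.52) and Bmx, a tyrosine kinase gene (0.53), and Bmx averaged 1.62 CPM in Tumor, 63.4 CPM in TdLN and 139 CPM in NdLN. The nearest to Nfe2l2 were Ensa (0.08) and Snx21 (0.09), to Nqo1 Slc31a2 (0.14), to Txnrd1 Tmem209 (0.12), to Srxn1 Nars2 (0.17) and to Hmox1 Rhoc (0.26).

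Among the members themselves, Txnrd1 and Srxn1 lay closest (0.30), followed by Hmox1 to Txnrd1 (0.33), Gclc to Gclm (0.37) and Nfe2l2 to Nqo1 (0.38). Akr1b8 and Duox2 had no close member: the nearest lay at 2.01 (Hmox1) and 2.06 (Nqo1). For Gclm the nearest gene in the search outside the members was Rnf11 (0.18) and for Gclc Aven (0.33). Shared groups of libraries underlie each of these distances, so they describe profiles only.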

How the data were processed

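RNA of 15 libraries (5 Tumor, 5 TdLN, 5 NdLN) was sequenced as single reads of 50 bases. The values the authors deposited are raw whole-number counts of reads for each gene, with no normalization. The submitters' processing notes name build GRCm38 and the tools featureCounts 1.4.6, STAR 2.4 and CASAVA 1.8.2; the annotation release and strand setting: not given in the sources used here. Per the labels' protocols the cDNA was amplified with a kit that keeps no strand, so reads of overlapping or antisense genes (such as Gm17494 at Gclm) mix. The sequencing pool of each library is not recorded, and pool effects were not tested. GENCODE M21 gave symbols and lengths for 21628 of 21839 gene IDs; the other 211 held 0.0859% of counts.

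From the counts, edgeR 4.0.16 in R 4.3.3 (TMM, filterByExpr, robust quasi-likelihood, 1 fit of 15 libraries) tested 13887 genes. SEs come from the F statistic. The steps were tested on simulated data with known folds. Libraries of a group differed far beyond sampling noise (lowest mean chi-square per gene 28.3), so none was a repeat reading of the same library. The chi-square allows only for sampling noise, so it cannot tell whether libraries came from the same RNA or animal. Counting error is set by totals of 23830337 to 37437282, and amplified reads are not independent molecules. The intervals hold amplification differences between libraries as part of their spread, but no amplification error common to all libraries.

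The members, the 10 context lists and the marker lists were chosen with earlier results of these data known, and no list was tested as a set. The text names members, fixed partners (such as Keap1 and Duoxa2), up to 3 genes per list with the smallest adjusted p, the 2 nearest profiles per member and, after their values were seen, a few other called genes of short lists. Alternatives were other size factors, no filter, a filter of 10 CPM in 5 libraries, DESeq2 1.42.0, limma 3.58.1's voom, a fit of 2 groups, each library left out, a test against a log2 fold change of 1, a replicate block, a prior count of 0.5 for profiles and, added after seeing the data, 2 GC covariates. Figures were drawn with matplotlib 3.10.9.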

Additional observations from a re-analysis of the deposited data

Results flagged for a closer look

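Within-group spread was examined for 276 groups of 5 libraries, and in 19 of them (6.88%) 1 library stood apart from the other 4 by the 95% limit of Dixon's ratio; chance flags about 5% of groups. Of the 30 groups of members, 2 were among them. Srxn1 was at 53.3 CPM in NdLN 1, with the others between 36.2 and 38.2 CPM. Gclc was at 12 CPM in NdLN 2, with the others between 3.36 and 5.48 CPM.

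Among Tumor libraries, Cat was at 129 CPM in Tumor 1, Nox1 at 0.0562 CPM in Tumor 3 where the others had 0, Akr1c18 at 6.29 CPM and Rhoj at 275 CPM in Tumor 5, and Dpy19l4 at 5.17 CPM in Tumor 2. Among TdLN libraries, TdLN 3 stood apart for Akr1b7 (0.46 CPM), Nox1 (17.3 CPM) and Akr7a5 (27.8 CPM), TdLN 4 for Slc3a2 (347 CPM), Pdpn (93.6 CPM) and Akr1c14 (2.65 CPM), and TdLN 2 for Gstp1 (97.9 CPM). Among NdLN libraries, NdLN 3 stood apart for Slc3a2 (451 CPM) and Ftl1 (727 CPM), NdLN 1 for Col1a2 (4.43 CPM) and Prox1 (674 CPM), and NdLN 2 for Ephx1 (517 CPM).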

How the results depend on the processing

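Of the member values recomputed under the alternatives, 603 kept their side of the threshold or, where not tested, their direction. Another 10 fell short of it, all in the test against a log2 fold change of 1, and 14 newly passed it. No value that passed in either fit changed direction, but some that passed in neither did. Gclm in Tumor against TdLN went from 0.441 to -0.004 at its lowest. Slc7a11 in TdLN against NdLN went from -0.038 to 0.233 at its highest. The test against a log2 fold change of 1 called 3525 genes in Tumor against TdLN, 4189 in Tumor against NdLN and 0 in TdLN against NdLN. It called 2 members in each Tumor comparison, Akr1b8 and Duox2, since it asks for a larger change. For TdLN against NdLN, DESeq2 called 972 genes and voom 817. With 1 library left out, the count of genes called was 8207 to 8557 in Tumor against TdLN, 8870 to 9156 in Tumor against NdLN and 225 to 564 in TdLN against NdLN, and that of members 7 to 7, 7 to 10 and 0 to 0. With the GC covariates, 9 members passed in Tumor against NdLN. The cause of the other changes was not tested. With a prior count of 0.5, 19 of the 20 nearest genes were shared.

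Replicate numbers occur in all groups, and the labels do not say whether a number marks 1 mouse. The numbers were therefore not used as pairs, and whether same-numbered libraries share a mouse is not known. Deviations of same-numbered libraries correlated at -0.21 to 0.25. Differently numbered libraries were not compared, so these correlations cannot settle it. With the replicate block, 8381, 8995 and 400 genes were called in the 3 comparisons, and 8, 7 and 0 members; Slc7a11 passed in Tumor against TdLN (-0.92, edgeR adjusted p = 0.0425), as did Akr1b7 (0.0368), while in TdLN against NdLN Pir (0.0846) and Gstm1 (0.111) did not.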
